A study of Triticum aestivum with 54 samples.

Results

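The genes described here lay below both diploid parents in the young inflorescence of a synthetic tetraploid wheat, in every generation measured. They are 100 of the 61115 probe sets of the Affymetrix Wheat Genome Array, where a probe set is a group of probes designed to 1 wheat transcript. The members were chosen from young inflorescence values in 2 steps. First, a probe set needed a mean of at least 6 on the log2 scale in Mix, the 1:1 RNA mixture of the parents, and 18759 probe sets met this. Each was then scored as the lowest of the T. urartu, Ae. longissima and Mix means minus the highest mean of AT2 generations S5, S6, S7 and S8. A score above 0 was found for 1454 probe sets, and the 100 highest were kept. These young inflorescence values of AT2, Mix and the parents therefore chose the members, and they are given as a description without a test.

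AT2 is a synthetic allotetraploid (genome SlSlAA) from Ae. longissima TL05 as female and T. urartu TMU06 as male parent, doubled with colchicine and followed over selfed generations S5 to S8. All AT2 samples descend from this 1 parental combination. TTR13 is cultivated tetraploid wheat, T. turgidum ssp. durum, and TD is its wild form, ssp. dicoccoides, both with the genomes BBAA. Each is 1 line, so a difference between them cannot be read as one between cultivated and wild wheat in general. Mix is the in vitro "hybrid" and stands for additive expression, and the diploid parents are T. urartu (AA) and Ae. longissima (SlSl). Each of these 9 genotypes was measured with 3 arrays in the young inflorescence at booting and 3 in the second leaf of seedlings of 3 weeks, 54 arrays in all, with several plants pooled per array. The sources do not say if the 3 Mix samples were made from different pools, so their spread may be technical. AT2, TTR13 and TD all carry an A genome, but the B genome of TTR13 and TD is a relative of the Sl genome of AT2 and not the same genome.

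An allopolyploid holds diverged copies of most genes, called homoeologs, one from each parental genome. If each copy keeps its parental activity, the total level in the polyploid should equal that of the parental mixture, which is the additive pattern. Expression outside the range of both parents is called transgressive. The paper requires a significant difference from both parents for this class. The genes considered here had AT2 means on the under-transgressive side, and were chosen without such a test. The array adds up the homoeologs of a gene, because its probes do not separate them, and probes designed on bread wheat may bind transcripts of each genome with different strength.

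Almost none of these genes can be named. The annotation covers 1273 of the 61115 probe sets and gives a locus symbol for 3 members, Ta.3854.1.S1_at (LOC543016), TaAffx.30054.1.S1_at (LOC780574) and TaAffx.128418.92.A1_x_at (LOC542778). A gene name other than a locus symbol was given for 0 members. The annotated histones, tubulins and genes of photosynthesis, translation, redox, defence and gibberellin synthesis hold 0 members, so no pathway can be described here. The names themselves differed from the background, since 80 of the 100 members begin with TaAffx, against 28.9% of the 18759 probe sets that met the Mix minimum and 48.6% of the whole array. A name ending that marks probes shared with other transcripts was found for 15 members, against 35.8% of the 18759 and 20.8% of the whole array. The members have 93 distinct name stems, and 13 members share a stem with another member, among them 3 probe sets of TaAffx.112844. Members that share a stem may measure the same transcript and do not count as separate genes.

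The tissue labels were checked with annotated markers. Of 34 photosynthesis probe sets, 29 were higher in leaf than in young inflorescence. Of 28 probe sets for histones and tubulins, which dividing cells need, 3 were higher in leaf, and their median level was 10.56 in young inflorescence and 5.41 in leaf on the log2 scale. The 4 probe sets of the anther marker raftin had medians of 4.11 in leaf and 3.84 in young inflorescence. All 4 were higher in leaf, where the highest was at 5.45. The 1 seed marker probe set was at 5.48 in leaf and 5.15 in young inflorescence. Neither the anther nor the seed list helps to check the labels, and none of these markers was a member. Array medians ranged from 4.69 to 4.92 on the log2 scale. In bulk tissue, fewer cells of a type and less RNA per cell cannot be told apart.

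In young inflorescence the scores ran from 1.14 for TaAffx.65647.1.S1_at to 0.48 for TaAffx.56355.1.S1_at, the last member. On this scale 1 unit is a 2-fold difference. TaAffx.56355.1.S1_at had a lowest mean of 8.67 among the parents and Mix and a highest AT2 mean of 8.19, whereas the first probe set left out, TaAffx.113934.1.S1_at, had 7.55 and 7.06. The list has no natural end at its last member, since the scores just inside and outside differ by less than the spread between replicates. For 45 members the highest AT2 mean was that of S8, and for 62 members the lowest of the parents and Mix was T. urartu. All 12 AT2 arrays lay below all 9 arrays of the parents and Mix for 56 members, against 0.81% of the 18759 probe sets, a count that the choice of members largely fixes.

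TaAffx.65647.1.S1_at had young inflorescence levels of 4.40, 4.79 and 4.59 in S5, 5.08, 6.07 and 5.30 in S6, 5.95, 5.88 and 6.02 in S7, and 6.08, 4.80 and 6.42 in S8. The same probe set had 7.05, 7.21 and 7.18 in Mix, 6.88, 7.42 and 7.0 in T. urartu, and 7.54, 7.54 and 7.05 in Ae. longissima. No AT2 array of this gene reached any array of the parents or Mix, and S5 was the lowest generation. Ta.9205.1.S1_at showed another form of the same rule. Its levels were 7.73, 7.92 and 7.68 in S5, 7.43, 7.73 and 7.56 in S6, 7.98, 7.43 and 7.85 in S7, and 7.49, 7.80 and 7.25 in S8, against 9.96, 9.13 and 9.66 in Mix, 9.80, 9.55 and 9.19 in T. urartu, and 8.81, 8.61 and 8.46 in Ae. longissima. Here the generations overlapped one another and none of their arrays reached the parents. The nearest arrays were 7.98 in S7 and 8.46 in Ae. longissima.

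The generations were not equal in their distance from the parents. The median level of the 100 members in young inflorescence was 5.51 in S5, 6.54 in S6, 6.42 in S7 and 6.58 in S8, against 7.50 in Mix, 7.28 in T. urartu and 7.79 in Ae. longissima. S5 had the lowest mean of the 4 generations for 82 members, a count from values that chose the members. The S6, S7 and S8 medians overlapped from array to array, with ranges of 6.29 to 6.72, 6.31 to 6.47 and 6.21 to 6.82, while the S5 arrays ranged from 5.55 to 5.61.

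**Figure D1:**
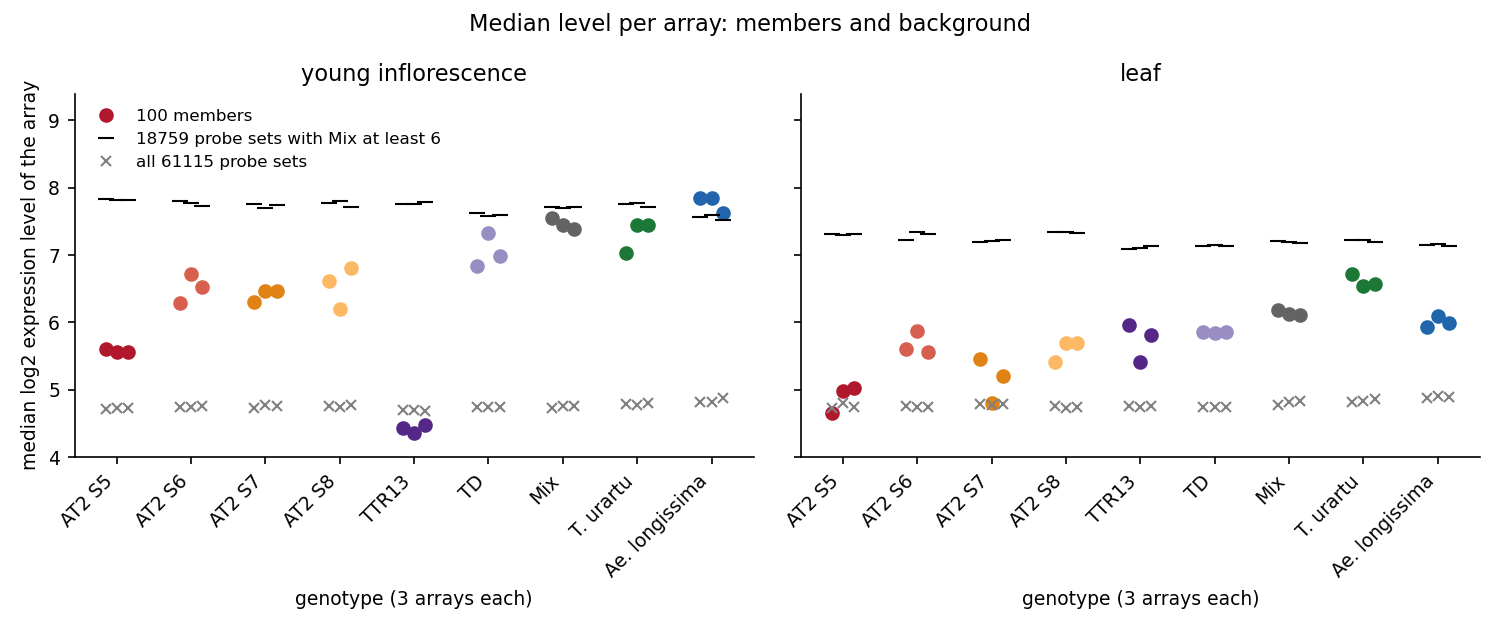
Median log2 expression level of each of the 54 arrays (vertical axis) by genotype (horizontal axis, 3 arrays each) in young inflorescence (left) and leaf (right). Filled circles are the median of the 100 members, short black lines that of the 18759 probe sets with a Mix mean of at least 6, and grey crosses that of all 61115 probe sets. In young inflorescence the members sat at 4.36 to 4.48 in TTR13, under the array median, and at 6.84 to 7.32 in TD. The background medians moved much less.

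The clearest difference outside the rule was between both natural tetraploids. In young inflorescence 82 members were called lower in TTR13 than in TD and 1 was called higher (limma over 27 arrays, Benjamini-Yekutieli adjusted p under 0.05), against 5.77% lower and 10.1% higher of all 61115 probe sets, and 9.68% lower of the 18759. The median difference of the members was -1.96 on the log2 scale, against -0.02 over all probe sets. The median level of the members was 4.35 in TTR13 and 7.02 in TD. The TTR13 median was thus below that of every AT2 generation, while the TD median was between AT2 and the parents. None of the TTR13 or TD arrays was used to choose the members.

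TaAffx.23214.1.S1_at had the largest difference. Its young inflorescence levels were 3.26, 3.22 and 3.25 in TTR13, against 9.95, 10.63 and 10.27 in TD (difference -7.04 ± 0.21, SE; limma adjusted p = 7.63e-19). TTR13 was under the median of its arrays, where a level cannot be told from background, so the size of the difference is that of the deposited values and not a measured fold. The same gene was between 7.87 and 7.97 in S5, 9.45 and 10.09 in S6, 9.06 and 9.81 in S7, 9.50 and 10.33 in S8, and between 10.61 and 11.43 in the parents and Mix.

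TaAffx.83888.1.S1_at had 2.54, 2.23 and 2.51 in TTR13, against 8.47, 9.08 and 8.77 in TD (difference -6.35 ± 0.21, SE; limma adjusted p = 7.5e-18). TaAffx.25602.1.S1_s_at had 2.12, 2.18 and 2.28 in TTR13, against 7.89, 8.78 and 8.43 in TD (difference -6.17 ± 0.27, SE; limma adjusted p = 3.39e-15). Ta.21696.1.S1_at had 1.91, 1.78 and 1.88 in TTR13, against 7.21, 7.64 and 7.49 in TD. In all 3 genes the TTR13 arrays were under the 25th percentile of the array and the TD arrays in its upper part, with no overlap, so the sizes of these differences too are not measured folds. All 3 TTR13 arrays lay below all 3 TD arrays for 86 members, against 24.2% of the 18759 probe sets, and all 3 were under the median of their array for 53 members, against 2.87%.

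Few of the 82 were also called lower in TTR13 leaf, 4 of them than TD and 11 than Mix. TTR13 leaf was called lower than Mix for 9.96% of all probe sets and 18.6% of the 18759. The median TTR13 leaf difference of the 82 was -0.06 from TD and -0.56 from Mix. As a set they were thus near TD in leaf and moderately below Mix, mostly without a call. In leaf 9 members were called lower in TTR13 than in TD and 1 was called higher, against 5.37% and 4.56% of all probe sets. The share called lower was near that of the 18759, and the share called higher was below their 6.46%. The median difference was -0.11. TaAffx.23214.1.S1_at had leaf levels of 9.52, 8.30 and 9.20 in TTR13 and 9.00, 9.11 and 9.03 in TD, which overlap. The difference between tissues was itself tested over all 54 arrays (limma). The TTR13 minus TD difference was called lower in young inflorescence than in leaf for 78 members and higher for 4. The shares were 4.99% and 9.1% of all probe sets, and 8.2% and 16.9% of the 18759.

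Array-wide values moved with this result. The 25th percentile of the array was 3.36 to 3.38 in TTR13 and 3.42 to 3.43 in TD young inflorescence, and the 75th percentile was 6.64 to 6.67 in TTR13 and 6.52 to 6.55 in TD, so the TTR13 arrays had the widest spread of that tissue. Their part in the result was not tested. After median centring 82 members were called lower, and after quantile normalization 83. Of the 28 histone and tubulin probe sets, 4 were called lower and 2 higher in TTR13, and their log2 levels summed to 264.8 to 266.7 in TTR13 and 264.6 to 266.3 in TD. Of the 34 photosynthesis probe sets, 3 were called lower and 1 higher, with sums of 157.5 to 159.0 in TTR13 and 163.0 to 164.7 in TD.

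**Figure D2:**
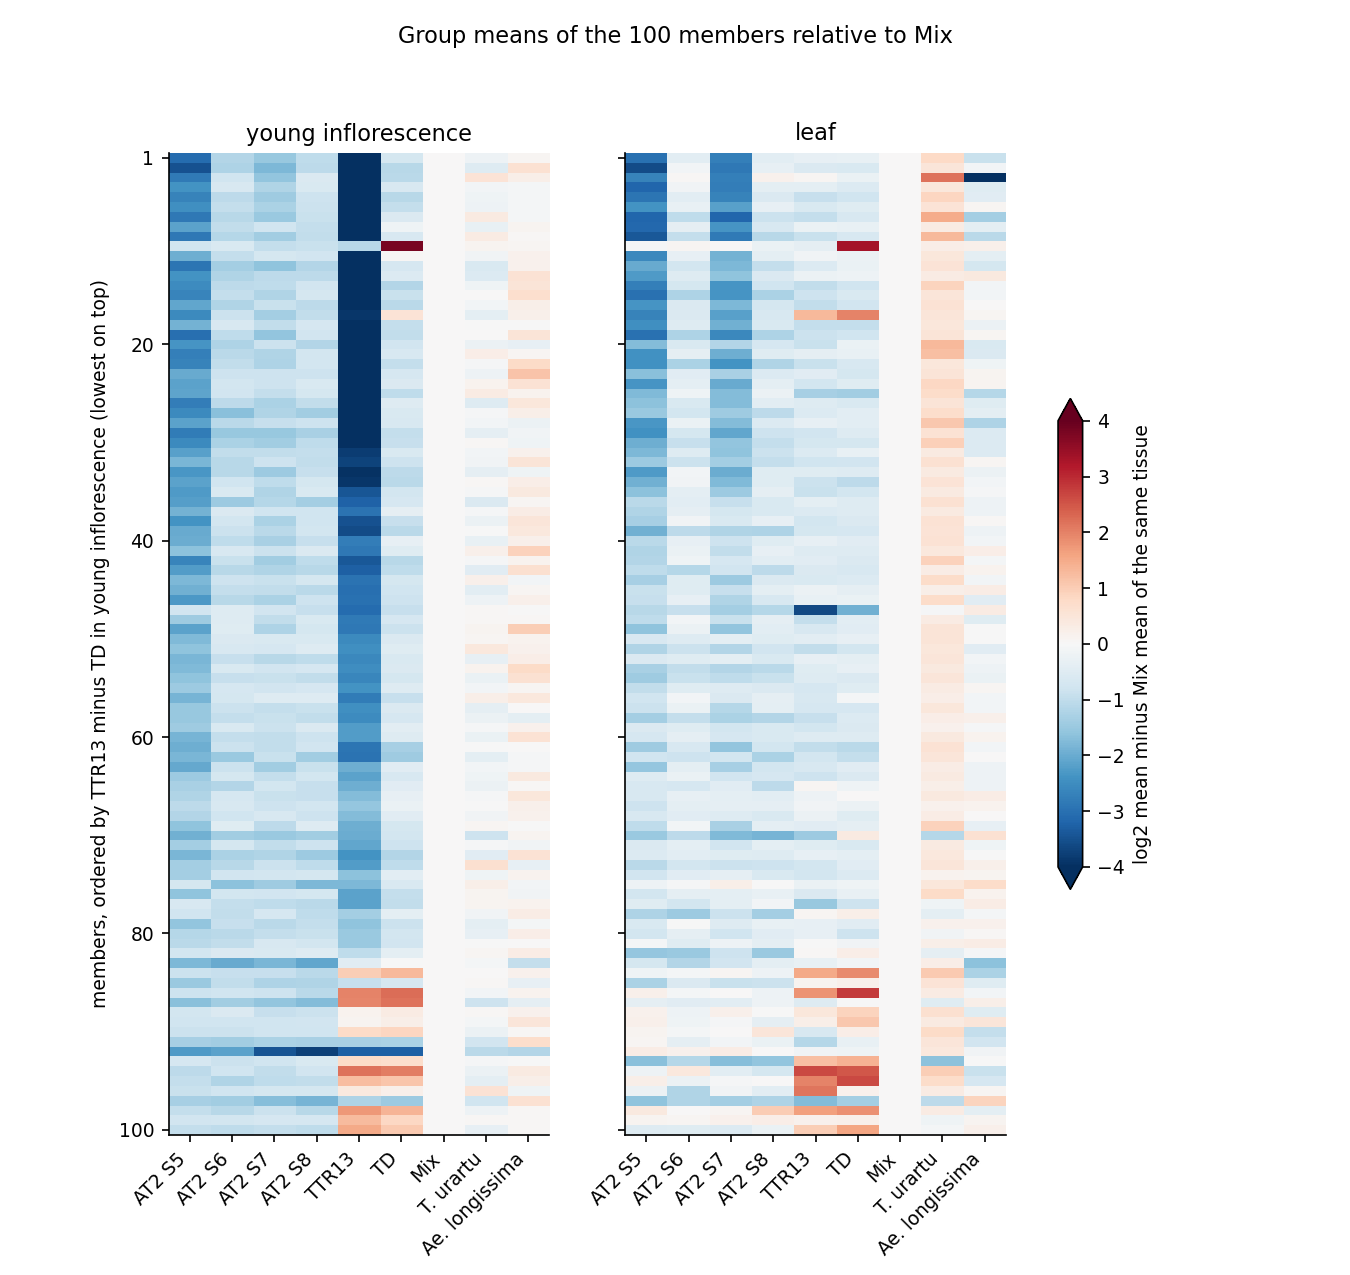
Mean log2 level of each of the 100 members (rows) in each genotype (columns) minus its Mix mean in the same tissue, in young inflorescence (left) and leaf (right). Blue is below Mix and red above it, and colours end at -4 and 4. Rows are ordered by TTR13 minus TD in young inflorescence, and the 82 rows called lower in TTR13 hold the dark TTR13 column of young inflorescence, which is paler in leaf for most rows.

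Ta.7157.1.A1_x_at, chosen after its values were seen, stood apart among the genes lower in TTR13. Its young inflorescence levels were 5.34, 5.09 and 5.32 in TTR13, against 10.25, 10.07 and 10.13 in TD, and its leaf levels were 5.05, 5.03 and 5.28 in TTR13, against 8.87, 8.88 and 8.66 in TD. It was high in TD in both tissues, while TTR13 overlapped AT2 (5.21 to 5.84 in young inflorescence). Ta.12038.1.A1_at, also chosen after its values were seen, was lowest in TTR13 in both tissues. In leaf it had 3.45, 4.08 and 3.32 in TTR13, 5.46, 5.20 and 5.24 in TD, and 7.18, 7.17 and 7.29 in Mix (TTR13 minus Mix -3.60 ± 0.20, SE; limma adjusted p = 2e-12). Its TTR13 leaf arrays were all under the array median, so the size of this difference is not a measured fold.

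The leaf arrays were not used to choose the members and allow a test of AT2 against Mix. In leaf 64 members were called lower in AT2, as the mean of its 4 generations, than in Mix, and 0 were called higher (limma over 27 arrays), against 3.84% lower and 6.59% higher of all probe sets and 6.24% lower of the 18759. The difference was below 0 for 95 members. The median difference was -0.94 for the members and -0.04 over all probe sets, and the called differences lay between -2.08 and -0.44. The count was 39, 38 and 39 when Mix replicate 1, 2 or 3 was left out.

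Against the parents themselves in leaf, 86 members were called lower in AT2 than in T. urartu and 0 higher, with a median difference of -1.30. The shares were 14.0% and 11.2% of all probe sets, and 18.2% and 23.4% of the 18759. Against Ae. longissima, 61 were called lower and 10 higher (23.2% and 12.1% of all probe sets, 23.1% and 25.7% of the 18759). The median was -0.70, where the median over all probe sets was -0.20 and moved to -0.07 after median centring. AT2 was called lower than Mix and both parents at once for 44 members, against 1.35% of all probe sets and 2.55% of the 18759. This count was 29 after median centring, 26 without Ae. longissima replicate 2 or Mix replicate 2, and 27 without Mix replicate 3. All 12 AT2 leaf arrays lay below all 9 leaf arrays of the parents and Mix for 24 members, against 0.542% of all probe sets and 0.906% of the 18759.

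TaAffx.112844.3.S1_x_at had the largest fall from Mix in leaf among the members. Its levels were 3.16, 3.66 and 4.08 in S5, 5.84, 6.47 and 5.96 in S6, 5.22, 2.75 and 4.62 in S7, and 5.29, 6.14 and 6.36 in S8, against 7.49, 6.98 and 6.65 in Mix (AT2 mean minus Mix -2.08 ± 0.33, SE; limma adjusted p = 0.000677). All AT2 arrays were below all Mix arrays, and all S5 and S7 arrays were below all S6 and S8 arrays. Ae. longissima, at 5.97, 6.12 and 5.78, overlapped S6 and S8, and AT2 was not called lower than it (limma adjusted p = 0.165). T. urartu was higher, at 8.03 to 8.71. The S5 arrays of this probe set were all under the array median, so the size of its fall is not a measured fold. TaAffx.112844.3.S1_at and TaAffx.112844.1.S1_x_at, which share its stem, were also lowest in S5 and S7 and are not separate evidence.

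TaAffx.59315.1.S1_at had 4.71, 5.19 and 4.96 in S5, 6.39, 7.17 and 6.63 in S6, 6.26, 4.45 and 5.45 in S7, and 6.38, 6.81 and 6.92 in S8, against 7.86, 8.05 and 7.95 in Mix (AT2 mean minus Mix -2.01 ± 0.23, SE; limma adjusted p = 7.76e-06). Its parents were at 8.44, 8.55 and 8.44 in T. urartu and 7.83, 8.46 and 7.78 in Ae. longissima. AT2 was thus below Mix and both parents in every leaf array, as it was in young inflorescence. The pair TaAffx.80666.1.S1_x_at and TaAffx.80666.1.S1_at followed with differences of -1.96 and -1.82.

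The number of calls differed between the generations in leaf, and it moved with the processing. S5 was called lower than Mix for 71 members (3.75% of all probe sets and 6.63% of the 18759), S6 for 20 (3.03% and 4.08%), S7 for 60 (2.27% and 4.58%) and S8 for 24 (5.02% and 7.53%). S8 was called higher than Mix for 1 member, Ta.12154.1.S1_at (7.87% of all probe sets and 17.4% of the 18759). S5, S6 and S7 were called higher for 0 members, against 6.05%, 5.36% and 2.03% of all probe sets and 13.6%, 10.5% and 3.83% of the 18759. The median differences from Mix were -1.21 in S5, -0.44 in S6, -1.0 in S7 and -0.53 in S8. These 4 comparisons share the same 3 Mix arrays, so they are not independent of each other. The S6 count was 9 and 12 without S6 replicate 1 or 3, and 13, 10 and 12 without Mix replicate 1, 2 or 3. The S7 count was 33 without S7 replicate 2 and 23 with only the groups compared. With the mean of the parents in place of Mix the counts were 81 for S5, 41 for S6, 78 for S7 and 51 for S8. The S8 count was 13 without S8 replicate 1, and 15, 14 and 14 without Mix replicate 1, 2 or 3.

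The order of the generations in leaf can also be given without Mix. The S5 and S7 means were both below the S6 and S8 means for 64 members in leaf, against 19.9% of the 18759 probe sets. S8 was called higher than S5 for 23 members and lower for 0 (2.17% and 2.18% of all probe sets, 4.37% and 3.88% of the 18759), with a median of 0.46. This count was 7 without S5 replicate 1, 13 without S5 replicate 2, 8 without S8 replicate 2 and 8 without S8 replicate 3. TaAffx.83888.1.S1_at was the extreme case, with leaf levels of 4.23, 4.35 and 4.5 in S5, 7.58, 8.28 and 7.70 in S6, 6.36, 3.66 and 5.23 in S7, and 7.21, 7.95 and 7.68 in S8 (S8 minus S5 3.25 ± 0.43, SE; limma adjusted p = 0.000139). Its S6 and S8 arrays overlapped Mix at 7.92, 8.0 and 7.92, whereas its S5 and S7 arrays did not. All its S5 arrays were under the array median, so its S8 minus S5 difference is not a measured fold. In leaf the median level of the members did not rise steadily, at 4.89 in S5, 5.73 in S6, 5.04 in S7 and 5.58 in S8. From array to array it ranged from 4.80 to 5.46 in S7 and from 5.41 to 5.69 in S8, which overlap. S7 was not tested against S6 or S8.

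**Figure D3:**
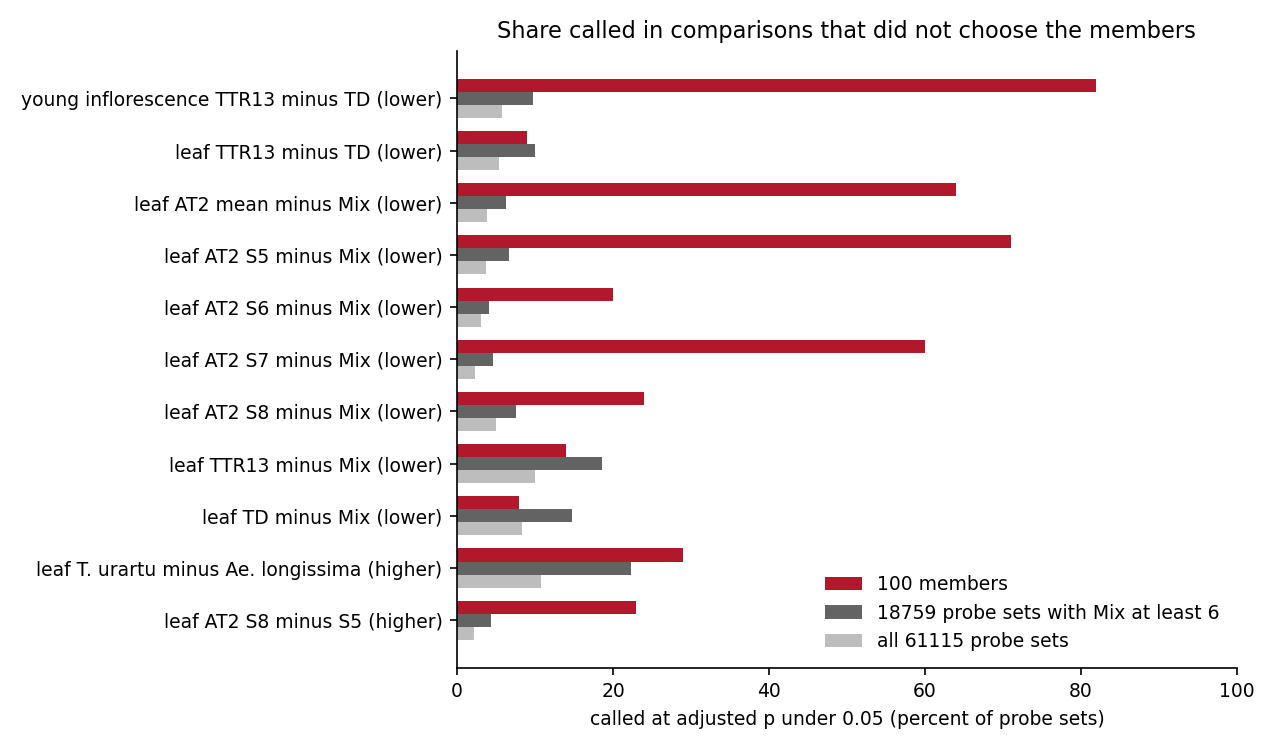
Percent of probe sets called at an adjusted p under 0.05 (horizontal axis) in 11 comparisons that did not choose the members, each in the direction given in brackets. Red bars are the 100 members, dark grey bars the 18759 probe sets with a Mix mean of at least 6, and light grey bars all 61115. The share of members stood far above the background in the top comparison and in AT2 S5 and S7 leaf, and near it for TTR13 and TD against Mix in leaf.

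Single arrays also moved the members together. S7 leaf replicate 2 was the lowest of the 3 S7 leaf arrays for 74 members, against 35.2% of the 18759 probe sets, with a member median of 4.80, against 5.46 and 5.21 in the other two. Without it, S7 was called lower than Mix for 33 members instead of 60, and the AT2 mean for 67. TTR13 leaf replicate 2 was lowest of its group for 80 members (43.0% of the 18759), S8 young inflorescence replicate 2 for 80 (29.7%), S6 young inflorescence replicate 1 for 79 (37.1%) and T. urartu young inflorescence replicate 1 for 86 (31.2%). After the mean of each group was taken away, the members still correlated with each other at a mean pairwise Pearson r of 0.31 over the 27 leaf arrays and 0.35 over the 27 young inflorescence arrays, against 0.01 and 0.02 among the 18759 probe sets. The array-wide quartiles of S7 leaf replicate 2 (25th percentile 3.49, 75th percentile 6.46) were close to those of the other two (3.49 and 3.51, 6.43 and 6.45). Differences between pools of 1 genotype were thus shared by the members, and their source was not tested.

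Over the 33 arrays that the rule did not use (27 of leaf and 6 of TTR13 and TD young inflorescence), the members correlated at a mean pairwise Pearson r of 0.51, against 0.04 among the 18759 probe sets. Points from 1 array share its RNA and hybridization. Compared with the mean profile of the members, of which each is a part, 68 members had an r above 0.8 and 97 had an r above 0. Of all 61115 probe sets 550 (0.9%) had an r above 0.8, and 505 of these (91.8%) had names beginning with TaAffx.

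The 82 members called lower in TTR13 and the other 18 are described side by side, with no test between them. The split uses the young inflorescence of the natural tetraploids alone. Of the 82, 74 had TaAffx names, and of the 18, 6 did. In leaf 60 of the 82 and 4 of the 18 were called lower in AT2 than in Mix, so 60 members were called in both comparisons, out of 82 and 64. S5 leaf was called lower than Mix for 67 of the 82 and 4 of the 18, S6 for 15 and 5, S7 for 56 and 4, and S8 for 21 and 3. Among all TaAffx probe sets that met the Mix minimum, 16.9% were called lower in TTR13 and 9.57% were called lower in AT2 leaf, lower shares than among the 80 members with that prefix.

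**Figure D4:**
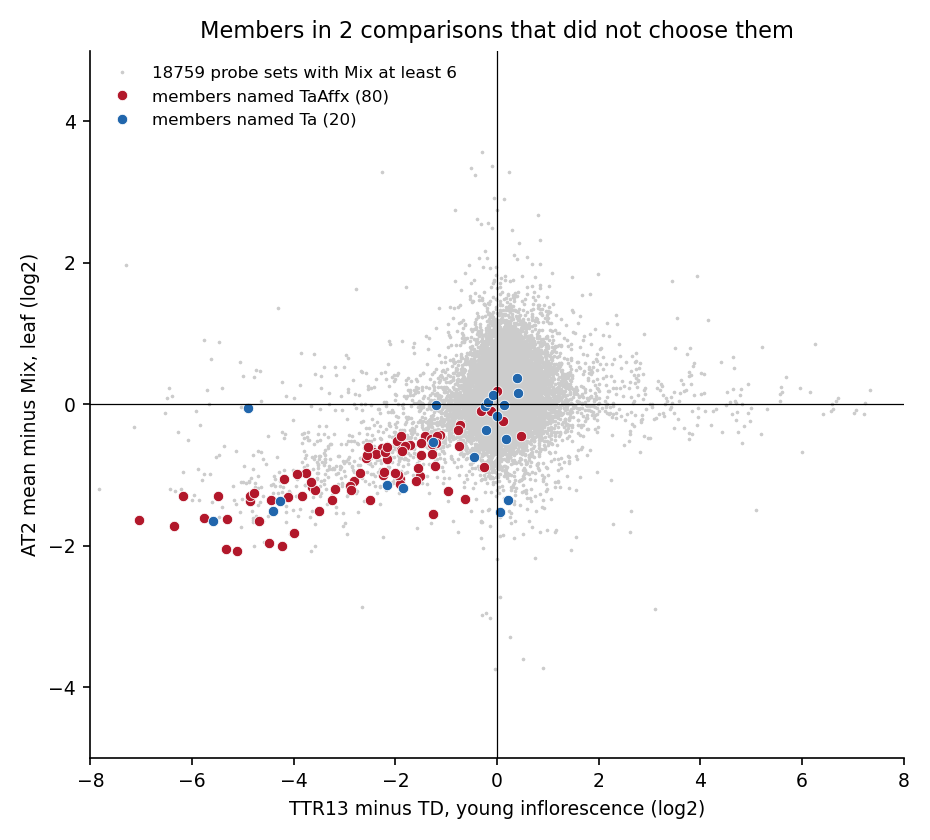
TTR13 minus TD in young inflorescence (horizontal axis, log2) against the AT2 mean minus Mix in leaf (vertical axis, log2). Grey points are the 18759 probe sets with a Mix mean of at least 6, red circles the 80 members named TaAffx and blue circles the 20 named Ta. Most members lie in the lower left, where both differences are negative, and a smaller set lies near 0 on the horizontal axis.

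Within the 82, the median young inflorescence level was 5.45 in S5, 6.55 in S6, 6.45 in S7, 6.60 in S8, 4.14 in TTR13, 6.78 in TD, 7.50 in Mix, 7.28 in T. urartu and 7.84 in Ae. longissima. Within the 18, it was 6.35 in S5, 6.32 in S6, 6.40 in S7, 6.39 in S8, 8.17 in TTR13, 8.06 in TD, 7.50 in Mix, 7.29 in T. urartu and 7.49 in Ae. longissima. In the smaller set the 4 generations had almost the same median, about 1 unit below Mix, and both natural tetraploids had medians above the parents. That TTR13 was near TD in the 18 and far below it in the 82 follows from the split.

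For 10 of the 18, the TTR13 and TD means were both above the parents and Mix in young inflorescence, against 12.5% of the 18759 probe sets, so this share of the 100 members is near the background. These genes were low in AT2 and high in TTR13 and TD. Ta.13669.1.S1_at had young inflorescence levels of 5.11, 5.30 and 5.17 in S5, 5.41, 5.67 and 5.38 in S6, 5.28, 5.38 and 5.24 in S7, and 5.05, 5.20 and 5.16 in S8. It had 9.01, 8.72 and 8.71 in TTR13, 8.89, 9.20 and 9.02 in TD, 6.59, 7.16 and 6.84 in Mix, 5.95, 6.09 and 6.03 in T. urartu, and 6.26, 6.46 and 6.77 in Ae. longissima. The 3 levels of this gene, AT2 lowest and TTR13 and TD highest, did not overlap on any array. In leaf it lay between 3.55 and 4.97 in all genotypes, under or near the array median.

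Ta.7728.1.S1_at had young inflorescence levels from 6.56 to 7.13 in the 12 AT2 arrays, against 9.75, 9.77 and 9.81 in TTR13, 10.02, 10.03 and 9.99 in TD, and 7.41 to 8.08 in the parents and Mix. In leaf it had 7.86, 7.77 and 7.79 in TTR13 and 8.95, 8.69 and 8.79 in TD, against 6.25, 5.97 and 5.79 in Mix (TTR13 minus Mix 1.80 ± 0.14 and TD minus Mix 2.81 ± 0.14, SE; limma adjusted p = 1.1e-09 and 1.44e-13). The AT2 leaf arrays, at 5.69 to 6.51, overlapped Mix. TaAffx.128.1.S1_at was likewise higher in leaf, with 9.86, 11.38 and 10.82 in TTR13 and 10.60, 10.51 and 10.53 in TD, against 7.83, 8.07 and 8.26 in Mix. TaAffx.56715.1.S1_at also rose in leaf, by 1.51 in TTR13 and 1.88 in TD relative to Mix. In Ta.7728.1.S1_at, TaAffx.128.1.S1_at and TaAffx.56715.1.S1_at the high level in both natural tetraploids was thus present in both tissues. Their low level in AT2 was not called in leaf. Ta.12154.1.S1_at, Ta.7736.1.A1_at and TaAffx.38259.1.S1_at were alike, but others of the 10 were not. Ta.13669.1.S1_at and Ta.3854.1.S1_at were under or near the array median in leaf. For Ta.9685.1.S1_at, TTR13 leaf (6.339, 6.074 and 5.785) lay below Mix (6.749, 6.663 and 6.677). Ta.25598.1.A1_at, also of the 10, was high in both tissues but was called lower in AT2 leaf.

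Ta.3854.1.S1_at (LOC543016) belonged to the same 10. It had 6.02, 6.11 and 5.92 in S5, 6.05, 6.10 and 6.02 in S6, 6.37, 5.92 and 6.05 in S7, and 6.18, 6.05 and 6.11 in S8, against 8.01, 7.93 and 8.19 in TTR13, 7.67, 7.52 and 7.72 in TD, and 6.61 to 7.03 in the parents and Mix. Its leaf levels of 2.43 to 3.44 were under the array median in every genotype, so it was detected in the inflorescence only. TaAffx.38259.1.S1_at was the 1 member called higher in TTR13 than in TD, with 7.84, 7.95 and 8.02 in TTR13 and 7.57, 7.38 and 7.42 in TD (difference 0.48 ± 0.12, SE; limma adjusted p = 0.041). This call was lost with quantile normalization and in 11 of the 27 fits that left out 1 young inflorescence array, among them each fit without a TTR13, TD or S5 array.

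TaAffx.28873.1.S1_at, the third by score, had all Mix arrays above all arrays of both parents in young inflorescence. It had 8.32, 8.24 and 8.27 in Mix, against 6.97, 7.31 and 7.33 in T. urartu and 7.23, 7.09 and 7.02 in Ae. longissima, although Mix was made from parental RNA. Its levels were 5.88, 6.04 and 6.09 in S5, 5.96, 6.29 and 6.14 in S6, 4.83, 4.91 and 4.74 in S7, 4.19, 4.64 and 4.78 in S8, 5.17, 4.97 and 4.92 in TTR13, and 5.14, 4.98 and 4.93 in TD. A gap therefore separated S5 and S6 from S7 and S8 in this gene, and S8 had the lowest mean. For 82 members the lowest generation was S5 instead. In leaf it was between 4.32 and 5.18 in all genotypes.

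**Figure D5:**
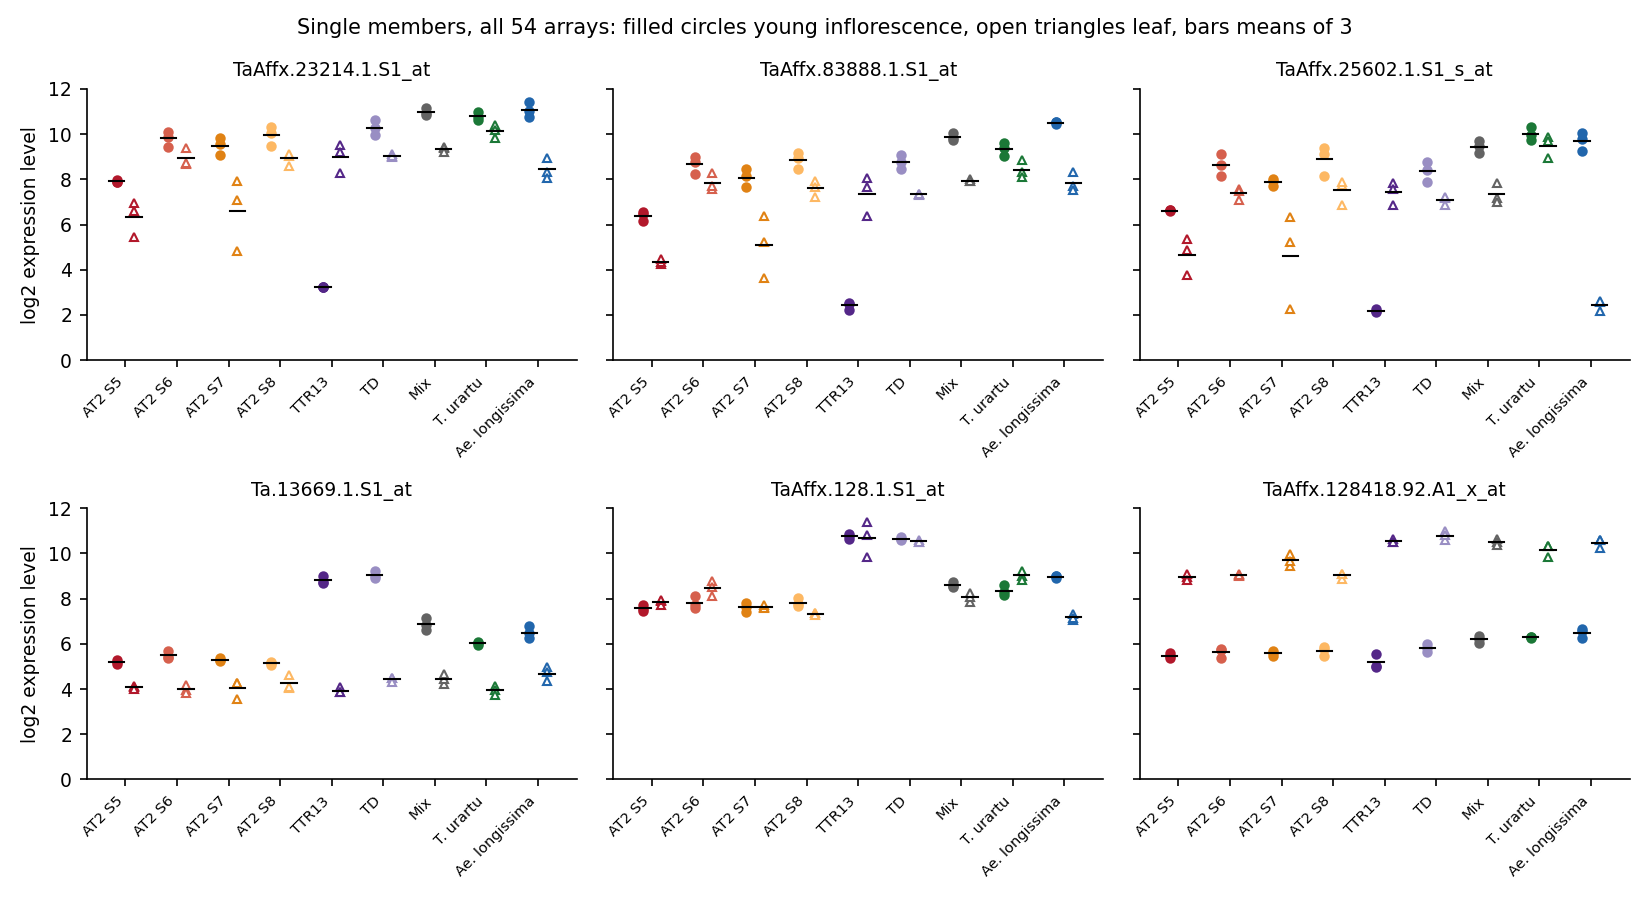
Log2 expression level (vertical axis) of 6 members on all 54 arrays by genotype (horizontal axis). Filled circles are young inflorescence, open triangles leaf, and black bars the mean of 3 arrays. The top row shows genes at 2.12 to 3.26 in TTR13 young inflorescence. The bottom row shows 2 genes that were highest in TTR13 and TD in young inflorescence, and TaAffx.128418.92.A1_x_at, which was higher in leaf.

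The Mix mean was higher in young inflorescence than in leaf for 95 members, but the choice of members used the young inflorescence value of Mix, so this is no finding. The mean over the 27 leaf arrays reached 6 for 38 members. In leaf 28 of these 38 and 36 of the other 62 were called lower in AT2 leaf than in Mix, against 7.13% and 2.4% of all probe sets with such leaf levels. The calls in leaf thus came from genes on both sides of this level.

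The 5 members that were not higher in the inflorescence include TaAffx.128418.92.A1_x_at (LOC542778). It had leaf levels of 8.82 to 9.07 in S5, 9.0 to 9.10 in S6, 9.43 to 9.996 in S7 and 8.87 to 9.11 in S8, against 10.64, 10.52 and 10.39 in Mix. The AT2 mean minus Mix was -1.34 ± 0.11 (SE; limma adjusted p = 9.42e-08), and no AT2 array reached a Mix array. TTR13 (10.50, 10.63 and 10.53) and TD (10.60, 10.98 and 10.80) overlapped or exceeded Mix. TaAffx.128418.104.A1_s_at shares its stem and was also lower in AT2 leaf, by -1.23. TaAffx.30054.1.S1_at (LOC780574) had no called difference in leaf between AT2 and Mix (-0.30 ± 0.11, SE; limma adjusted p = 0.577), and in young inflorescence it was lower in TTR13 (4.78, 4.97 and 4.93) than in TD (5.68, 5.43 and 5.74).

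Among the 18 members not called lower in TTR13, 4 were called lower in AT2 leaf: Ta.9205.1.S1_at, TaAffx.53964.1.S1_at, Ta.7623.1.S1_at and Ta.25598.1.A1_at. The first of these was among the top scores, and the others are named after their values were seen. Ta.25598.1.A1_at had leaf levels of 7.20 to 8.63 in the 12 AT2 arrays, against 10.72, 10.54 and 10.57 in TTR13, 10.80, 10.86 and 10.70 in TD, 9.31, 9.47 and 9.45 in Mix, 7.88, 7.58 and 7.81 in T. urartu, and 9.44, 9.25 and 9.46 in Ae. longissima. AT2 overlapped T. urartu and was below Mix (-1.53 ± 0.13, SE; limma adjusted p = 6e-08). Ta.7623.1.S1_at was alike, with 5.68 to 6.60 in AT2, 7.63, 7.71 and 7.75 in Mix, 6.62, 6.83 and 6.46 in T. urartu, and 8.70, 8.36 and 8.71 in Ae. longissima. In leaf both genes overlapped the lower parent, T. urartu, although they were below both parents in the inflorescence.

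Both natural tetraploids had calls in both directions against Mix in leaf. TTR13 was called lower than Mix for 14 and higher for 8 members (9.96% and 8.95% of all probe sets, 18.6% and 11.4% of the 18759), and TD lower for 8 and higher for 11 (8.27% and 9.16%, 14.7% and 13.0%). The count of members lower in TTR13 was 9 without TTR13 replicate 2, and that of members lower in TD was 5, 4, 5 and 5 without Mix replicate 2, Mix replicate 3, TD replicate 1 and TD replicate 2. The median differences were -0.52 in TTR13 and -0.45 in TD, against -0.13 and -0.12 over all probe sets, and 83 members in TTR13 and 81 in TD were below 0. These medians were close to those of S6 and S8. With Benjamini-Hochberg adjustment 36 members were called lower in TTR13 and 33 in TD, and with only the groups compared TD had 33. Between the parents in leaf, T. urartu was called higher than Ae. longissima for 29 members and lower for 5 (10.8% and 12.7%, 22.3% and 21.8% of the 18759), with a median of 0.57. The largest such difference was in TaAffx.25602.1.S1_s_at, with 9.86, 9.68 and 8.95 in T. urartu, against 2.18, 2.58 and 2.60 in Ae. longissima. This gene was at background in the leaf of Ae. longissima, yet had 10.06, 9.80 and 9.24 in its inflorescence.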

How the data were processed

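Expression was measured on 54 Wheat Genome Arrays. The deposited values are log2 levels that the authors made with RMA, with MAS5 and limma named in the labels, no version given. The sources do not say if both tissues were normalized together, so levels are set across tissues only as a description. No genome build is given in the sources used here. Genotypes were read from sample titles, since the genotype field gives AT2 throughout. The members and lists were chosen with earlier results of these data known.

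Each tissue was fitted without a filter over all 61115 probe sets and 27 arrays with limma 3.58.1 in R 4.3.3 (lmFit, eBayes, 1 mean per genotype), and calls required an adjusted p (Benjamini-Yekutieli) under 0.05. The tissue difference was fitted over all 54 arrays, an analysis added after the data were seen. Named members were the 10 with the highest scores, those with an annotation, those with the largest leaf differences between AT2 and Mix and the largest inflorescence differences between TTR13 and TD, the extremes of the natural tetraploids against AT2, and the last by score. Other members are named as chosen after their values were seen or as parts of small counts.

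Alternatives were Benjamini-Hochberg adjustment, a filter at the 65th percentile of the array, only the groups compared, median centring, quantile normalization, a minimum fold of 1.5, no probe sets with shared probes, the mean of the parents in place of Mix, a replicate block, other member rules and leaving out each array. On simulated data with a planted log2 change of -1, the fit called 89 of 100 probe sets for the leaf comparison of AT2 with Mix and 86 of 100 for TTR13 against TD in young inflorescence. The changes were planted in probe sets drawn at random with independent noise. Because the members vary together, these shares need not hold for them. The number of arrays limits the precision. Figures were drawn with matplotlib 3.10.9.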

Additional observations from a re-analysis of the deposited data

Results flagged for a closer look

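The difference between TTR13 and TD depended on the tissue for several members described above, in the test of the difference itself (limma over 54 arrays). The TTR13 minus TD difference in young inflorescence, less that in leaf, was -7.01 for TaAffx.23214.1.S1_at, -6.51 for TaAffx.25602.1.S1_s_at, -6.38 for TaAffx.83888.1.S1_at, -5.91 for TaAffx.56355.1.S1_at and -5.45 for Ta.21696.1.S1_at on the log2 scale. It was -5.02 for TaAffx.112844.3.S1_at, -4.86 for TaAffx.112844.3.S1_x_at, -4.29 for TaAffx.80666.1.S1_x_at, -4.18 for TaAffx.59315.1.S1_at and -3.77 for TaAffx.80666.1.S1_at. Smaller values were found for TaAffx.65647.1.S1_at (-3.54), TaAffx.65606.1.S1_at (-3.26), TaAffx.55136.1.S1_at (-3.24), TaAffx.24515.1.S1_at (-2.95), TaAffx.23114.1.S1_at (-2.38) and TaAffx.30054.1.S1_at (-0.86). In all of these except TaAffx.80666.1.S1_at and TaAffx.30054.1.S1_at, every TTR13 young inflorescence array was under the array median. Such a level cannot be told from background, so the sizes for these genes are not measured folds and their order carries no meaning. The difference was of the opposite sign in TaAffx.38259.1.S1_at (1.07) and Ta.7728.1.S1_at (0.76).

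Leaf levels of AT2 also differed between generations S8 and S5 (limma over 27 arrays). S8 was above S5 by 3.25 in TaAffx.83888.1.S1_at, 2.85 in TaAffx.25602.1.S1_s_at, 2.80 in TaAffx.56355.1.S1_at, 2.58 in TaAffx.23214.1.S1_at, 2.30 in TaAffx.112844.3.S1_x_at and 2.30 in TaAffx.112844.3.S1_at. It was above S5 by 1.75 in TaAffx.59315.1.S1_at, 1.72 in TaAffx.80666.1.S1_x_at, 1.60 in TaAffx.65606.1.S1_at and 0.99 in TaAffx.55136.1.S1_at. All S5 leaf arrays were under the array median in TaAffx.83888.1.S1_at, TaAffx.112844.3.S1_x_at, TaAffx.112844.3.S1_at and TaAffx.65606.1.S1_at. Sizes for these genes are thus not measured folds, and their place in the order carries no meaning.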

How the results depend on the processing

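Counts of called members under other settings are given here where they moved by over 1.5 times. Benjamini-Hochberg adjustment gave 33 members lower than Mix in leaf for S6, 42 for S8, 33 for TD and 36 for TTR13, 44 with T. urartu above Ae. longissima, 46 with S8 above S5, 72 below Mix and both parents at once, and 3 higher in TTR13 than TD in young inflorescence. Fitting only the groups compared gave 11 for S6, 23 for S7, 33 for TD, 3 with T. urartu lower and 28 below Mix and both parents. Median centring gave 29 below Mix and both parents, and the mean of the parents in place of Mix gave 41 for S6 and 51 for S8. The 1 member higher in TTR13 was lost (0) with quantile normalization, a minimum fold of 1.5 and the replicate block. With single arrays left out in turn there were 38 to 71 members lower in leaf for the AT2 mean, 9 to 21 for S6, 33 to 62 for S7, 13 to 28 for S8, 4 to 12 for TD and 9 to 20 for TTR13, 7 to 31 with S8 above S5, 26 to 54 below Mix and both parents, and 0 to 1 higher in TTR13. Why these counts moved was not tested. The other 123 counts under other settings stayed within 1.5 times, none reversed, and the 82 members lower in TTR13 ranged from 79 to 82 with an array left out. Same-numbered arrays deviated together in 1 of 27 pairs per tissue, so numbers do not pair the arrays. With the number as a replicate block the AT2 mean was called lower in leaf for 62 members and TTR13 in young inflorescence for 82. Choosing the members on quantile normalized values kept 89 of them, and a Mix minimum of 7 kept 67. Signal over background limits the 53 members under the array median in TTR13 young inflorescence. It also limits the 36 members with all S5 leaf arrays under the array median, and the 18 with all S7 leaf arrays under it.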
